A study of Mus musculus with 6 samples.

Results

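Matrix metalloproteases, their TIMP inhibitors and the ADAM and ADAMTS proteases were followed in the ageing mouse cochlea. The genes are every symbol of the deposited table that starts with Mmp, Timp, Adam or Adamts followed by a digit, which gave 56 of 17091 genes: 17 Mmp, 4 Timp, 17 Adam and 18 Adamts genes. Bulk RNA came from the cochlear lateral wall of 3 old mice aged 2.5 years and 3 young mice aged 2 months, all of the inbred strain CBA/CaJ. Both cochleas of a mouse went into its library, and no allele or treatment is given for either age. The study's title asks which molecular changes accompany ageing in this tissue.

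The proteases of these families bind zinc and cut proteins outside the cell or at its surface. MMPs degrade collagens, elastin and basement membranes, ADAMs release membrane proteins such as cytokines and growth factors from the cell surface, and ADAMTS enzymes trim procollagens and cut proteoglycans. TIMPs occupy the active site of these enzymes. In the lateral wall their substrates include the collagen-rich matrix of the spiral ligament and the basement membranes around the capillaries of the stria vascularis.

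Values are normalised read counts, that is reads scaled by a size factor for each library, and values of a group run in the order of replicates 1, 2 and 3. A gene was called higher or lower in old mice at an adjusted p under 0.05 in limma, with Benjamini-Hochberg adjustment over all genes, on log2(value + 1). Changes marked ± carry the SE of the fit on that log2 scale, where genes with few reads appear to change less than they do. Recovered reads numbered 37577314 to 39103398 per old library and 37055355 to 38179961 per young library.

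Titles and tissue labels name the lateral wall, whereas the source name given for the 6 samples is auditory nerve cells. The lateral wall markers were abundant: 8 strial genes summed to 396356 to 554520 in old libraries and 468688 to 497007 in young libraries, and 7 fibrocyte genes to 477348 to 1007570 in old libraries and 1089996 to 1230746 in young libraries. Old libraries differed among themselves in markers of other cells. Neutrophil and marrow markers summed to 6293, 1141 and 11882 in old replicates 1, 2 and 3, against 479 to 701 in young libraries. Neuronal markers summed to 489, 4626 and 5362 in old replicates 1, 2 and 3, against 271 to 563 in young libraries. Xist, the RNA of the inactive X chromosome, was at 45.2 in old replicate 3 and at 24382 to 29162 in the other 5 libraries, and the labels give no sex. In bulk tissue, fewer cells of a type and less RNA per cell cannot be told apart.

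Of the 56 genes, 2 were higher in old mice (Mmp12 and Adam8), 5 were lower (Adamts2, Timp4, Timp2, Adamts10 and Mmp2) and 49 were not called. The 7 called genes are 12.5% of the 56, against 5.25% of all genes tested. Higher calls were 2.71% and lower calls 2.55% of all genes. The groups did not overlap in 24 of the 56 genes (42.9%), against 26.1% of all genes. Old lay above young in 9 of them, against 13.2% of all genes, and below young in 15, against 12.8% of all genes. At an unadjusted p under 0.05, limma gave 23 of the 56, against 21.3% of all genes. DESeq2 on the recovered reads called 14, against 10.6% of all genes. Their median log2 change was -0.12, against 0.00 over all genes. Without old replicate 3, 1 was higher and 5 were lower. Without old replicates 1 and 3, which were high in marrow markers, 1 was higher (Adam23) and 5 were lower, but that leaves 1 old mouse against 3 young mice. The spread then comes from the young mice alone, and the old mouse is assumed to vary like them, here and wherever both libraries are left out.

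**Figure D1:**
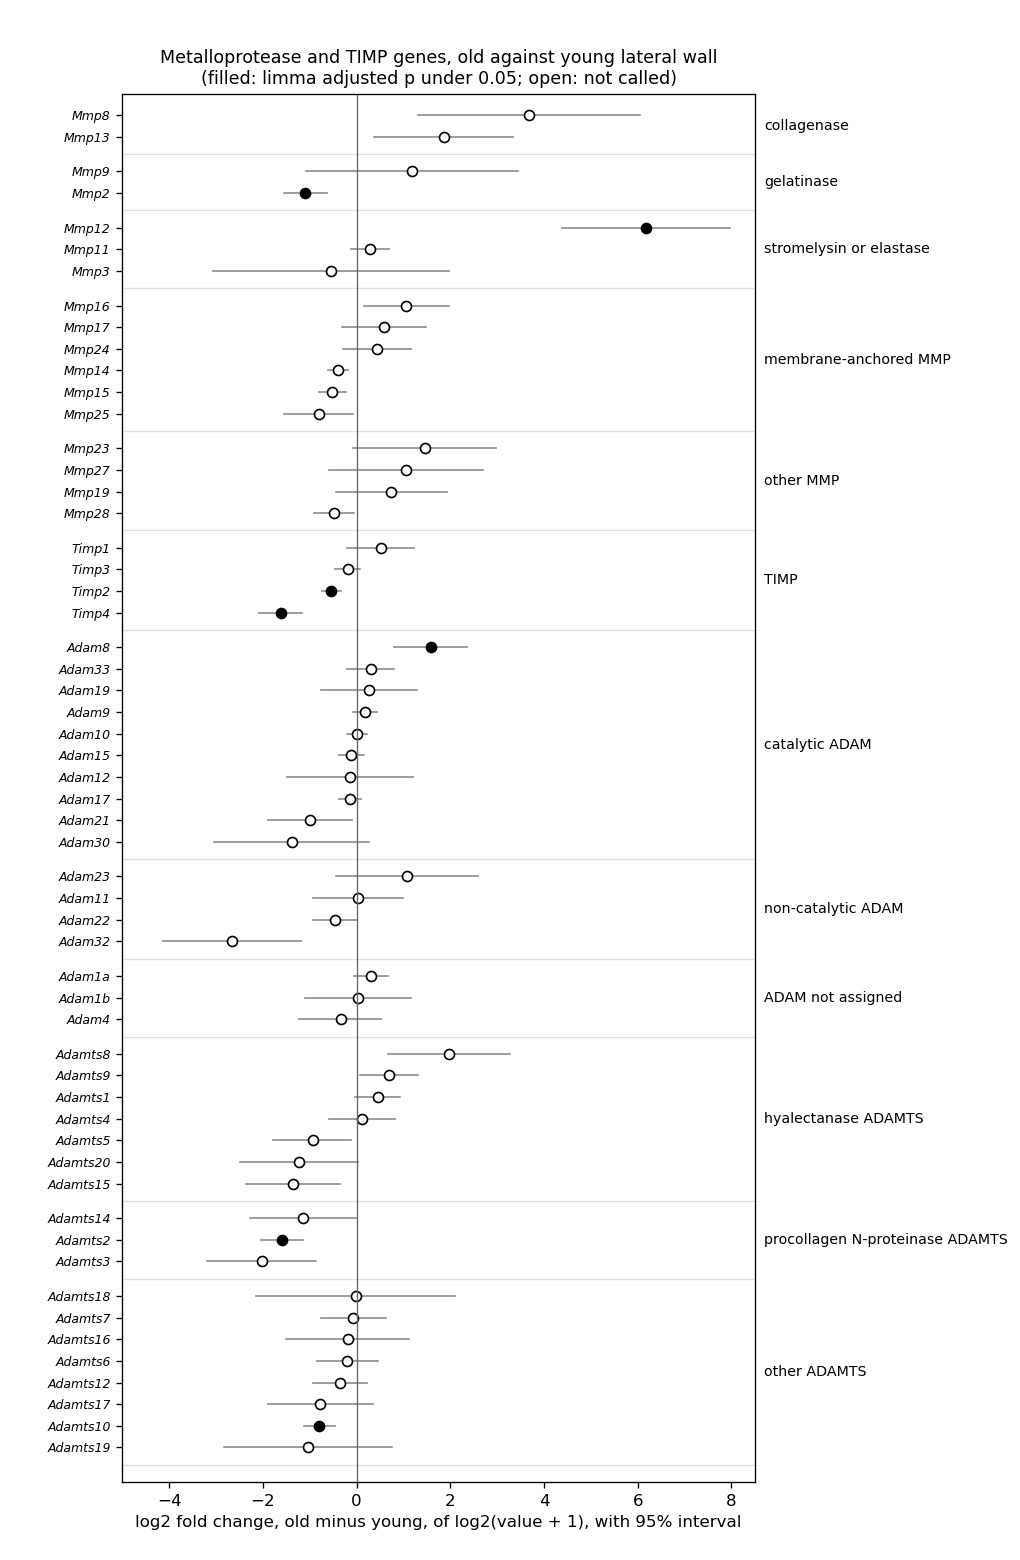
Log2 change in old against young lateral wall of each of the 56 genes, grouped by role, with its 95% confidence interval from limma (horizontal axis: log2 scale; filled points: adjusted p under 0.05; 3 old and 3 young mice). Mmp12 lies farthest to the right at 6.18, and all 11 procollagen N-proteinase and other ADAMTS genes lie below 0.

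Mmp12 encodes the macrophage metalloelastase, which degrades elastin, and lies on chromosome 9 at chr9:7344381-7369499 of GRCm38, plus strand. It had 622, 1299 and 1022 normalised read counts in old libraries, against 38.8, 12.4 and 3.06 in young libraries. Every old library stood far above every young library, and the young libraries differed among themselves more widely on the log scale than the old ones. The change was 6.18 ± 0.77 (limma adjusted p = 0.00791), and the ratio of means was 54.2, from 3080 recovered reads in old mice and 52 in young mice. Leaving out young replicate 2 ended the call at a change of 6.21 (limma adjusted p = 0.0630). With old replicate 2 as the 1 old library the change was 6.65 (limma adjusted p = 0.0685).

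Adam8, a membrane protease of leukocytes and osteoclasts that cuts surface receptors, lies at chr7:139978932-139992562, minus strand. It had 215, 147 and 386 normalised read counts in old libraries, against 58.7, 91.3 and 83.7 in young libraries. The lowest old library was above the highest young library, with old replicate 3 the highest. The change was 1.58 ± 0.35 (limma adjusted p = 0.0356). This call was lost under 10 of 18 other settings, with limma adjusted p from 0.00893 to 0.118 when single libraries were left out. With old replicate 2 as the 1 old library the change was 0.93.

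Macrophage markers were higher in old libraries, as were both genes. Of 17 macrophage markers in the table, 12 were called higher and 0 lower, none was at 0 in any library, and they summed to 68277 to 104025 in old libraries and 37603 to 40675 in young libraries. On the log2 scale the list exceeded its young mean by 1.39, 1.2 and 1.6 in old replicates 1, 2 and 3, while Mmp12 exceeded its own by 5.59, 6.65 and 6.3 and Adam8 by 1.48, 0.93 and 2.32. The Mmp12 differences are measured from young values of few reads. Among old libraries Mmp12 was highest in replicate 2, where the macrophage list was lowest. Adam8 shared its order of old libraries with the macrophage, neutrophil and marrow, osteoclast, erythroid and strial lists, so the order does not single out a cell type. The neutrophil and marrow list exceeded its young mean by 3.17, 0.86 and 3.75 in old replicates 1, 2 and 3. The osteoclast list exceeded its own by 1.0, 0.89 and 1.7, and the strial list differed from its own by 0.08, -0.16 and 0.34. The part of macrophage, neutrophil, marrow or osteoclast content in either change was not tested.

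Mmp12 lies in a run of Mmp genes on the plus strand of chromosome 9, with Mmp13 at chr9:7272514-7283331, Mmp3 at chr9:7445822-7455975, Mmp8 at chr9:7558456-7568485 and Mmp27 at chr9:7571396-7581885. The cluster's 3 genes that stood above young in every old library (Mmp12, Mmp13 and Mmp8) have their promoters printed here, beside those of Adam8, the other gene called higher, and of Timp2, the most abundant of the 56 per kilobase of exon and called lower. Each window covers 250 bases before and 50 from an annotated start, read 5′ to 3′ on the gene's strand, from RefSeq on GRCm38.p6. Capitals mark matches, on either strand, to 3 motifs that were picked after the sequences had been read. The AP-1 site was searched as TGAGTCA and its reverse complement. For the TATA box the letters searched on both strands were TATAAA. The GC box was likewise searched on both strands, by the letters GGGCGG. No motif overlaps another in these windows.
Mmp12, upstream start, chr9:7344147-7344446, plus strand: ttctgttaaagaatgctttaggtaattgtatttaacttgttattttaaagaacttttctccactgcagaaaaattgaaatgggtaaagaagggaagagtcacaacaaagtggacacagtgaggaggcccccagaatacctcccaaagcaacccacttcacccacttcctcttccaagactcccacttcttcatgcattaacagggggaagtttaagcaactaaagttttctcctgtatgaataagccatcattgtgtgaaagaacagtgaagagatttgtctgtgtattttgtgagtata
Mmp12, downstream start, chr9:7347124-7347423, plus strand: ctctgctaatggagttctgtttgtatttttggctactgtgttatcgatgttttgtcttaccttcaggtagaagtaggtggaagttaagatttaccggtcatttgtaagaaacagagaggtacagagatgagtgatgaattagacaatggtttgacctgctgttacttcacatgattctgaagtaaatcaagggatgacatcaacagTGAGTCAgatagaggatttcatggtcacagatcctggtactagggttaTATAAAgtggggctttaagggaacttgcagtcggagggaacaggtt
Mmp13, chr9:7272264-7272563, plus strand: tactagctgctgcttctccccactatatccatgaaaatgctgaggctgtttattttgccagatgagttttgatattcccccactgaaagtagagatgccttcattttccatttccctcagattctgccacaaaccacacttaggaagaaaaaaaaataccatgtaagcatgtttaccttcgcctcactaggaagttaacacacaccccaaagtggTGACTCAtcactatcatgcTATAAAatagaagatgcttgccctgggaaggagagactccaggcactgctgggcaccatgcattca
Mmp8, chr9:7558179-7558478, plus strand: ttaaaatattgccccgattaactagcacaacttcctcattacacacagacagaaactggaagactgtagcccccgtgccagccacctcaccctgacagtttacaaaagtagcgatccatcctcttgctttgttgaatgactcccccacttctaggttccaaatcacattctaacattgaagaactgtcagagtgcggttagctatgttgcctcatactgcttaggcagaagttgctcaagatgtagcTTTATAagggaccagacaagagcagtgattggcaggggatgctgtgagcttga
Adam8, chr7:139992513-139992812, minus strand: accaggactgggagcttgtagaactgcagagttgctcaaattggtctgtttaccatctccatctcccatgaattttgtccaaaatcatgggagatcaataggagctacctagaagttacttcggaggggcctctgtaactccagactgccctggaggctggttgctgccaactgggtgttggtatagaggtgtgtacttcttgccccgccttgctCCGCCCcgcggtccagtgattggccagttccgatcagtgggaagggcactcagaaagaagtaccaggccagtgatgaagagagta
Timp2, chr11:118355362-118355661, minus strand: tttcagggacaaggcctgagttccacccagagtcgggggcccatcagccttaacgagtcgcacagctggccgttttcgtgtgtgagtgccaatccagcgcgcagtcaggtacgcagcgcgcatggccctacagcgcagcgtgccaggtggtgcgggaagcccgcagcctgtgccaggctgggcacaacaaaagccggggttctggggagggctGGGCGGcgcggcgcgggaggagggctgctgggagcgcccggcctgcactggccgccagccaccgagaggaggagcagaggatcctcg

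The downstream Mmp12 start had the AP-1 letters with their first base at -44 from the start, and Mmp13 had them at -35 on the other strand. The TATA letters began at 5, past the start, in Mmp12 and at -16 in Mmp13. The upstream Mmp12 start held none of the 3 motifs, Mmp8 held only the TATA letters, on the other strand at -3, and Adam8 and Timp2 held only the GC box. Windows were present for 35 of the 56 genes, 39 windows in all, and Mmp2 and Adamts10 had none. The AP-1 letters occurred in 5 of these 39 windows (Mmp12, Mmp13, Mmp3, Adam19 and Adam1b), against 5.2% of 32851 windows of the genome. The TATA box occurred in 5 of the 39, against 13.6% of all windows, and the GC box in 22 of the 39, against 35.7%. These matches describe letters, and binding was not measured.

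The collagenases Mmp8 and Mmp13 were not called. Mmp8, the collagenase stored in neutrophil granules, had 203, 21.7 and 476 normalised read counts in old libraries, against 8.39, 7.26 and 12.3 in young libraries. Old replicate 2 was far below the other old libraries, yet above all young ones, and the change was 3.69 ± 1.01 (limma adjusted p = 0.0889). Without old replicate 2 it was 4.95 (limma adjusted p = 0.000678). The authors' deposited table gives Mmp8 an adjusted p of 0.00069 and a fold change of 25.1. Mmp13, the collagenase of osteoblasts and hypertrophic cartilage, had 35.9, 24.6 and 151 normalised read counts in old libraries, against 19.9, 14.5 and 8.17 in young libraries. Old replicate 3 held most of its reads (1.86 ± 0.65, limma adjusted p = 0.146).

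Neutrophil and marrow markers and erythroid markers had the same order of old libraries as Mmp8, and so did the macrophage, osteoclast and strial lists. On the log2 scale the neutrophil and marrow list exceeded its young mean by 3.17, 0.86 and 3.75 in old replicates 1, 2 and 3. Mmp8 exceeded its own young mean by 4.33, 1.17 and 5.56. Of the 18 neutrophil and marrow markers, 4 were called higher and 0 lower, and Ctsg, Fcnb and Cebpe were at 0 in a young library. The 14 erythroid markers in the table exceeded their young mean by 2.5, 0.41 and 3.02, with sums of 17209 to 57027 in old libraries and 14758 to 16022 in young libraries, and none was called or at 0. Osteoclast markers, 8 of 10 in the table, exceeded their young mean by 1.0, 0.89 and 1.7, and Mmp13 exceeded its own by 1.36, 0.83 and 3.4. Of these osteoclast markers 2 were called higher and 1 lower, their sums were 2926 to 4279 in old libraries and 2486 to 2647 in young libraries, and Ocstamp was at 0 in a young and Oscar in an old library. Osteoblast and osteocyte markers differed from their young mean by -1.83, -1.4 and -1.45 in old replicates 1, 2 and 3, and cartilage markers by -1.03, -0.61 and -1.35, the opposite sign to Mmp13. Whether these cells account for the collagenase reads was not tested.

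**Figure D2:**
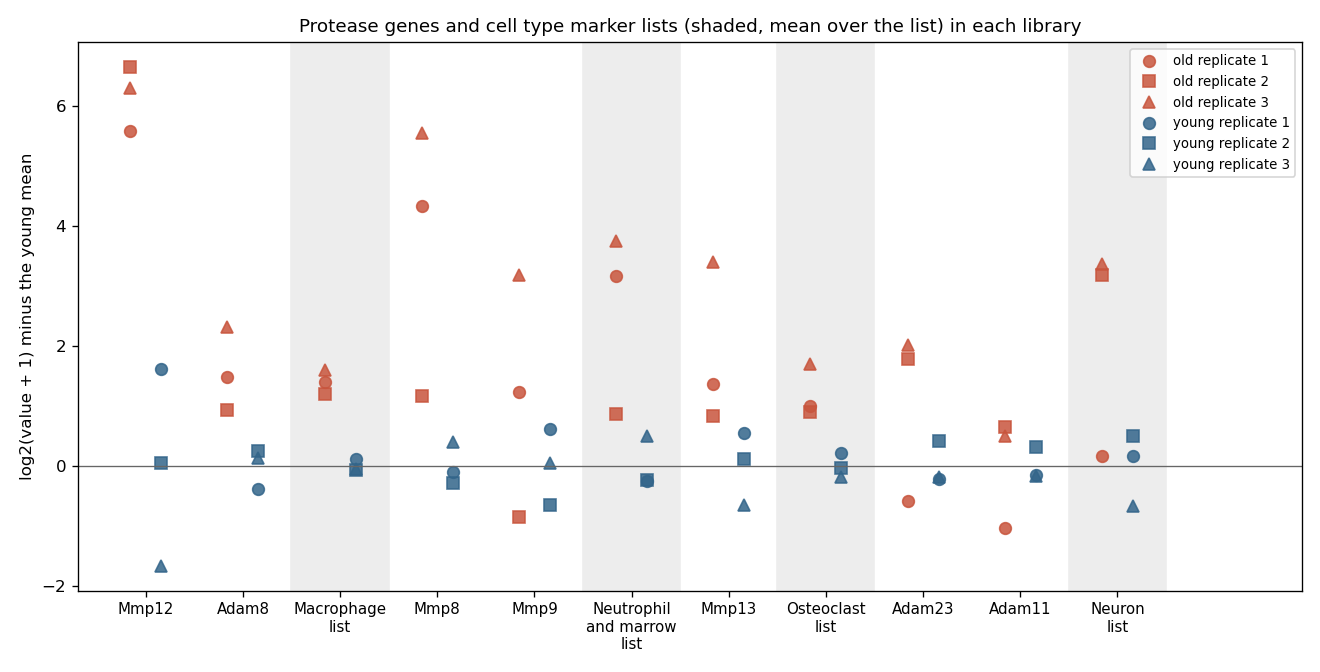
Log2(value + 1) minus the young mean (vertical axis) in each old and young library for 7 genes and, shaded, the mean over 4 marker lists (symbols: replicates). Mmp8 and Mmp9 are high in old replicates 1 and 3, as is the neutrophil and marrow list, while Adam23 and the neuron list are high in old replicates 2 and 3.

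The gelatinases Mmp2 and Mmp9 cut denatured collagen and the type IV collagen of basement membranes. Mmp2 had 1479, 2322 and 1301 normalised read counts in old libraries, against 4035, 3377 and 3215 in young libraries. It fell in every old library, with old replicate 2 nearest to the young range, and the change was -1.10 ± 0.20 (limma adjusted p = 0.0214; chr8:92827291-92853420, plus strand). With any single young library left out it was not called (limma adjusted p from 0.0717 to 0.0780), and with old replicate 2 as the 1 old library the change was -0.60 (limma adjusted p = 0.0730). Mmp9 had 152, 35.0 and 595 normalised read counts in old libraries, against 98.6, 40.5 and 66.4 in young libraries. The groups overlapped, old replicate 2 was the lowest of all 6 libraries, and the change of 1.19 ± 0.95 was not called (limma adjusted p = 0.536). With old replicate 2 as the 1 old library its direction turned, to -0.86.

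Membrane-anchored MMPs act at the cell surface, where Mmp14 cuts collagen and activates the proenzyme of Mmp2, a step in which Timp2 takes part. Mmp14 had 4512, 4766 and 5075 normalised read counts in old libraries, against 6002, 6939 and 6039 in young libraries. Mmp15 had 3531, 2551 and 3092 normalised read counts in old libraries, against 4261, 4102 and 4734 in young libraries. Old lay below young without overlap in both, but their changes of -0.40 ± 0.10 and -0.52 ± 0.13 just missed the threshold (limma adjusted p = 0.0513 and 0.0504). Mmp25, a leukocyte enzyme anchored by a lipid, had 49.4, 36.9 and 87.4 normalised read counts in old libraries, against 99.7, 88.2 and 99.0 in young libraries (-0.80 ± 0.33, limma adjusted p = 0.2). It thus had its lowest values in the old libraries, in contrast to Mmp8. Mmp16, Mmp17 and Mmp24 had changes of 0.44 to 1.06 and were not called.

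Among the other MMPs, Mmp11, the stromelysin that furin activates before secretion, had 570.1, 848 and 559 normalised read counts in old libraries, against 585, 508 and 498 in young libraries. Mmp3, a stromelysin that also activates other MMPs, had 1.94, 14.2 and 0.00 normalised read counts in old libraries, against 1.05, 15.6 and 3.06 in young libraries, too few reads to show a change. Mmp19 had 66.9, 53.9 and 170.1 normalised read counts in old libraries, against 26.2, 77.8 and 63.3 in young libraries. The groups overlapped in all 3 genes, and limma called none (adjusted p = 0.403, 0.830 and 0.468). Mmp23, Mmp27 and Mmp28 were not called either.

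Of the 4 inhibitors, Timp2 and Timp4 fell. Timp2, which inhibits MMPs broadly, had 23280.2, 23551 and 22218 normalised read counts in old libraries, against 32778, 33186 and 34126 in young libraries. The spread within each age was small beside the gap, and Timp2 fell by 0.54 ± 0.09 on the log2 scale (limma adjusted p = 0.0141; chr11:118301069-118355740, minus strand). Timp4 had 116, 132 and 117 normalised read counts in old libraries, against 296, 459 and 390 in young libraries. It fell by 1.62 ± 0.20 (limma adjusted p = 0.00388; chr6:115241892-115252205, minus strand) and stayed called under all 18 other settings. Timp2 was not called without young replicate 2 or without young replicate 3 (limma adjusted p = 0.0684 and 0.0898), with changes of -0.54 and -0.52. Nor was it called in limma without trend and robust fitting (adjusted p = 0.0535).

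Timp3, which is bound to the matrix and also inhibits ADAM17 and aggrecanases, had 33968, 31049 and 36218 normalised read counts in old libraries, against 33518, 42023 and 40405 in young libraries. Timp1, an inducible soluble inhibitor, had 103, 124 and 83.6 normalised read counts in old libraries, against 97.6, 80.9 and 45.9 in young libraries. Old and young libraries overlapped in both, and neither was called (-0.19 ± 0.12 and 0.51 ± 0.32, limma adjusted p = 0.405 and 0.402). Timp4 and Timp3 lie within the genes Syn2 and Syn3 on the opposite strand and share 90 and 1733 exon bases with them, and whether reads were counted by strand is not stated. Syn2 averaged 43.4 normalised read counts in old and 27.7 in young libraries, and Syn3 252 in old and 368 in young libraries. The part of reads from Syn2 and Syn3 in the Timp4 and Timp3 values was not tested.

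**Figure D3:**
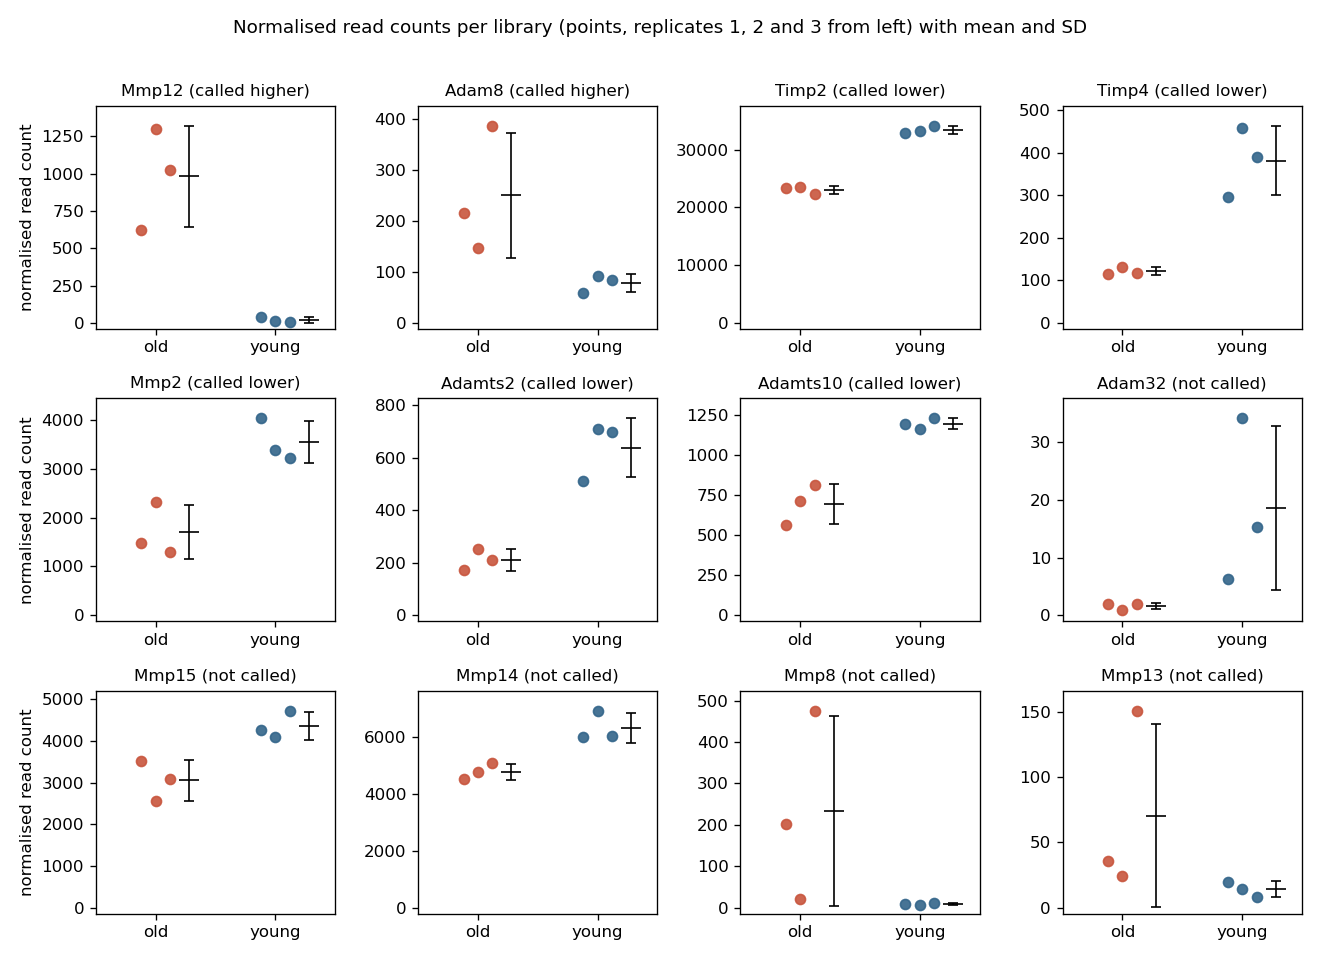
Normalised read counts (vertical axis, linear) of 12 genes in each old and each young library (points), with the mean and SD of the 3 libraries of an age. Timp2, Timp4, Mmp2, Adamts2 and Adamts10 show old libraries below all young libraries, and Mmp8 and Mmp13 show old means that 1 or 2 libraries carry.

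Catalytic ADAMs other than Adam8 were not called. Adam10, which releases the Notch extracellular domain and many adhesion proteins, had 4118, 3859 and 4473 normalised read counts in old libraries, against 4362, 4038 and 4005 in young libraries. Its change was 0.00, with a 95% confidence interval of -0.21 to 0.22. Adam17, the TNF convertase, had 1497, 1466 and 1498 normalised read counts in old libraries, against 1757, 1686 and 1469 in young libraries. Its 95% confidence interval ran from -0.37 to 0.10, and both intervals include 0.

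Adam9 and Adam15, widely expressed ADAMs with roles in shedding and adhesion, were also abundant. Adam9 had 7658, 6385 and 8350.3 normalised read counts in old libraries, against 6772, 6443 and 6484 in young libraries. Adam15 had 2923, 3173 and 3951 normalised read counts in old libraries, against 3473, 3711 and 3558 in young libraries. Both overlapped between ages (0.18 ± 0.11 and -0.11 ± 0.12, limma adjusted p = 0.413 and 0.664).

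The meltrins Adam12 and Adam19, known from muscle, bone and heart valve development, were low. Adam12 had 9.70, 43.5 and 49.0 normalised read counts in old libraries, against 43.0, 31.1 and 21.4 in young libraries. Adam19 had 57.2, 93.6 and 233 normalised read counts in old libraries, against 86.0, 102 and 81.7 in young libraries. A single old library stood apart in each, replicate 1 below the rest for Adam12 and replicate 3 above the rest for Adam19, and neither was called (limma adjusted p = 0.924 and 0.786). Adam33, known from smooth muscle and fibroblasts, had 172, 267 and 241 normalised read counts in old libraries, against 151, 207 and 189 in young libraries (0.30 ± 0.22, limma adjusted p = 0.497).

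ADAMs without a working active site act in adhesion, and Adam11, Adam22 and Adam23 are neuronal binding partners of LGI proteins. Adam23 had 50.4, 265 and 312 normalised read counts in old libraries, against 65.0, 102 and 66.4 in young libraries. Old replicate 1 lay below all young libraries and the other old libraries above them, so the change of 1.08 ± 0.65 was not called (limma adjusted p = 0.396). On the log2 scale the 6 neuronal markers differed from their young mean by 0.17, 3.19 and 3.36 in old replicates 1, 2 and 3, and Adam23 differed from its own by -0.58, 1.79 and 2.02. None of the 6 was called and none was at 0, and the part of nerve tissue in the Adam23 values was not tested. Adam32, known from testis, had 1.94, 0.946 and 1.92 normalised read counts in old libraries, against 6.29, 34.2 and 15.3 in young libraries, that is 5 recovered reads in old mice and 54 in young mice. It just missed the threshold (-2.66 ± 0.65, limma adjusted p = 0.0503). The changes of Adam11 (0.04) and Adam22 (-0.47) were not called, and neither were those of the remaining ADAMs, which lay between -1.39 in Adam30 and 0.31 in Adam1a.

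The procollagen N-proteinases remove the amino-terminal propeptide of fibrillar procollagens, and all 3 lay below young in every old library. Adamts2 had 171, 253 and 209 normalised read counts in old libraries, against 509.9, 709 and 698 in young libraries. Its highest old library reached less than its lowest young library, and it fell by 1.60 ± 0.20 (limma adjusted p = 0.00387; chr11:50602084-50807573, plus strand), a call kept under all 18 other settings. Adamts3, which also processes the growth factor VEGF-C, had 5.82, 27.4 and 8.65 normalised read counts in old libraries, against 48.3, 46.7 and 53.1 in young libraries. Its change of -2.03 ± 0.52 was not called (limma adjusted p = 0.0574), nor was that of Adamts14 (-1.14 ± 0.50, limma adjusted p = 0.227).

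Hyalectanase ADAMTS genes, whose enzymes cut aggrecan and versican, went in both directions and none of the 7 was called. Adamts1 had 2041, 1786 and 2504 normalised read counts in old libraries, against 1098, 1706 and 1908 in young libraries (0.45 ± 0.21, limma adjusted p = 0.262). Adamts5, the main aggrecanase of mouse cartilage, had 60.1, 189 and 122 normalised read counts in old libraries, against 231, 216 and 201 in young libraries. It lay below young in every old library, most in replicate 1 (-0.94 ± 0.37, limma adjusted p = 0.184). Adamts4, another aggrecanase, had 47.5, 67.1 and 38.4 normalised read counts in old libraries, against 45.1, 39.4 and 54.1 in young libraries (0.11 ± 0.31, limma adjusted p = 0.874). Adamts8 had 8.73, 18.0 and 28.8 normalised read counts in old libraries, against 2.1, 3.11 and 6.13 in young libraries, all low but without overlap (1.97 ± 0.58, limma adjusted p = 0.0873). Adamts9 had a change of 0.69, Adamts15 of -1.36 and Adamts20 of -1.23.

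All 8 other ADAMTS genes had changes below 0, with a median of -0.28, and Adamts10 was the 1 called. The other 7 had changes of -1.04 to -0.02. Adamts10, which binds fibrillin microfibrils, had 563, 710.2 and 810.0 normalised read counts in old libraries, against 1191, 1162 and 1230.3 in young libraries. The young libraries lay close together and all above the old ones, and it fell by 0.80 ± 0.15 (limma adjusted p = 0.0180; chr17:33524204-33553782, plus strand). With any single young library left out it was not called (limma adjusted p from 0.0528 to 0.0910). Over the whole ADAMTS family, 14 of 18 genes had changes below 0 and the median was -0.57.

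The cartilage, osteoblast and osteocyte, and skeletal muscle markers that were called were all lower in old mice. Osteoclast markers differed, with 2 called higher and 1 lower. Of 7 cartilage markers 3 were lower and 0 higher, none was at 0, and they summed to 4724 to 8383 in old libraries and 11044 to 12349 in young libraries. Of 12 osteoblast and osteocyte markers 6 were lower and 0 higher, none was at 0, and their sums overlapped (300302 to 365057 in old libraries and 317703 to 372506 in young libraries). Of 7 skeletal muscle markers 2 were lower and 0 higher, with sums of 20 to 65 in old libraries and 116 to 199 in young libraries. Acta1, Myh1 and Myh2 were at 0 in an old library. Of the 7 fibrocyte markers 1 was lower and 0 higher, none at 0, with the sums given above. The part of these tissues in the falls of Mmp2, Adamts2, Adamts10 and the TIMPs was not tested.

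Levels per kilobase were divided by the length of all annotated exons of a gene, merged over its transcripts. This length can exceed that of the transcripts present, so places between genes are approximate. On this measure the same 3 genes led in both ages. Timp2 averaged 5908 normalised reads per kilobase in old and 8563 in young libraries, Timp3 4144 in old and 4746 in young libraries, and Adam9 1814 in old and 1596 in young libraries. In young libraries the ranges of Timp2, Timp3 and Adam9 did not overlap, Mmp14 (1062) and Mmp2 (1051) overlapped and could not be ordered, and so did Adam10 (842) and Mmp15 (809). In old libraries Mmp2 averaged 504 and ranged from 386 to 689, overlapping Mmp15 (567) and Adam15 (545). By its mean Mmp12 ranked 12 of 56 in old libraries and 49 in young libraries, with ranges of 86.0 to 179.5 in old and 0.423 to 5.36 in young libraries. The merged exons of Mmp12 span 7.24 kilobases, against 1.8 in Mmp3, 2.21 in Mmp27, 2.42 in Mmp8 and 2.67 in Mmp13. A longer divisor gives a lower level and rank. Mmp8 ranged from 8.97 to 196 in old and from 2.99 to 5.05 in young libraries, too wide in old libraries to give it a place.

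**Figure D4:**
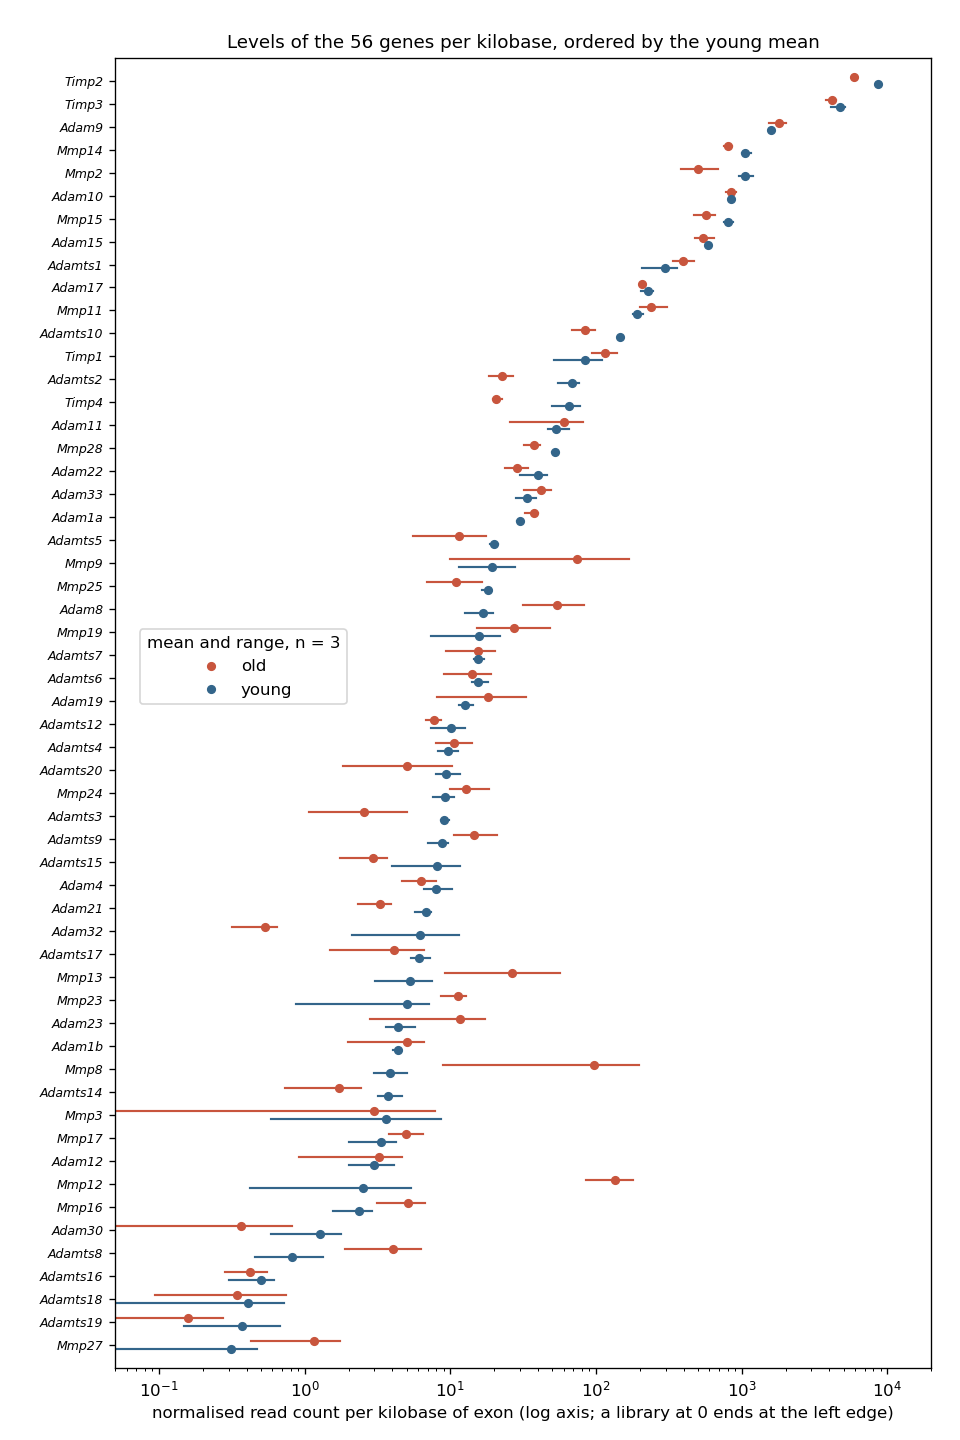
Mean normalised reads per kilobase of exon (horizontal log axis) of the genes in old and young libraries, with the range over the 3 libraries of an age. Timp2, Timp3 and Adam9 are the most abundant at both ages, and Mmp12 shows the widest gap between the ages.

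Summed per kilobase, the 4 TIMPs reached 10282, 10019 and 10264 in old libraries, against 12689, 13847 and 13838 in young libraries. The 17 MMPs summed to 2383, 2570 and 2719 in old libraries, against 3350, 3254 and 3154 in young libraries. Both sums were lower in every old library than in any young library, and their ratio overlapped: 4.0 ± 0.278 in old and 4.14 ± 0.314 in young libraries (SD, n = 3 each). Mmp2, Mmp14 and Mmp15 made up 73.5% ± 6.01 of the MMP sum in old and 89.8% ± 0.404 in young libraries, and Mmp12 5.27% ± 1.69 in old and 0.0754% ± 0.0759 in young libraries (SD, n = 3 each). The ADAM sum was 3571, 3341 and 4134 in old libraries, against 3534, 3479 and 3394 in young libraries, and the groups overlapped. These sums and shares depend on the merged exon lengths. They describe transcript levels, and enzyme activity was not measured.

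Other genes of the pathway, listed by role, gave 25 called genes of 112 (22.3%, against 5.25% of all genes), 9 higher and 16 lower, with a median change of -0.20. Some also stand in the marker lists above, such as Lcn2, Ctsk, Csf1r, Col2a1 and Acan. Among 9 activators, the urokinase gene Plau and its receptor gene Plaur rose (1.11 ± 0.26 and 2.37 ± 0.33), and the proprotein convertase genes Furin and Pcsk5 and the collagen-cutting cathepsin gene Ctsk fell (-0.52 ± 0.12, -1.25 ± 0.18 and -0.56 ± 0.12). Plaur had 185, 174 and 416 normalised read counts in old libraries, against 43.0, 46.7 and 45.9 in young libraries (limma adjusted p = 0.00605). Furin, which activates membrane-anchored MMPs, Mmp11 and most ADAMs, had 4768, 3869 and 4381 normalised read counts in old libraries, against 5693, 7079 and 5952 in young libraries (limma adjusted p = 0.0384).

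Among 10 inhibitors other than TIMPs, Spock3 rose and Serpine2 fell (2.83 ± 0.57 and -0.47 ± 0.11, limma adjusted p = 0.0327 and 0.0385). Spock3 had 132, 556 and 696 normalised read counts in old libraries, against 56.7, 56 and 42.9 in young libraries, so its 2 highest values fell in the libraries highest in neuronal markers. Reck, a membrane-anchored inhibitor of MMPs, had 1123 to 1516 normalised read counts in old libraries and 1404 to 1462 in young libraries and was not called. Of 9 inducers and surface partners, Lcn2, which binds MMP9, rose by 2.78 ± 0.51. Lcn2 had 533, 197 and 968 normalised read counts in old libraries, against 56.7, 69.5 and 76.6 in young libraries. It is itself among the neutrophil and marrow markers and had their order of old libraries. Of the same 9 genes, Lrp1, a receptor that clears MMPs and TIMPs, and Thbs1 fell (-0.73 ± 0.10 and -0.71 ± 0.16). Among 9 partners in ADAM10 and ADAM17 maturation only Tspan33 was called (1.15 ± 0.20, limma adjusted p = 0.0150).

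Of 24 matrix genes 6 fell and 0 rose: Col1a2 (-3.73 ± 0.30), Col3a1 (-2.70 ± 0.31), Col5a2 (-2.19 ± 0.24), Col2a1 (-1.62 ± 0.18), Acan (-1.34 ± 0.19) and Bgn (-0.71 ± 0.13). Col1a2, a chain of type I collagen, whose propeptide ADAMTS2 removes, had 404, 853 and 951 normalised read counts in old libraries, against 9302, 9884 and 8454 in young libraries (limma adjusted p = 0.00161). Col1a1, the other chain, had 66.9, 314 and 494 normalised read counts in old libraries, against 1352, 671 and 361 in young libraries. The groups overlapped in Col1a1, and it was not called (-1.65 ± 0.81, limma adjusted p = 0.307). Of 4 related metalloproteases Bmp1, the procollagen C-proteinase, and Pappa2 fell (-0.82 ± 0.12 and -2.11 ± 0.33, limma adjusted p = 0.00855 and 0.00901), and of 7 ADAMTS-like genes Adamtsl1 fell (-1.18 ± 0.13, limma adjusted p = 0.00226).

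Of 28 genes for proteins shed from the cell surface, 3 rose and 1 fell. Trem2, a receptor of microglia and macrophages that ADAM10 and ADAM17 cut, had 565, 625 and 924 normalised read counts in old libraries, against 240.2, 196 and 175 in young libraries (1.77 ± 0.21, limma adjusted p = 0.00322). Tnfrsf1b and Cxcl16 rose by 1.65 ± 0.28 and 0.83 ± 0.12, and Il6ra fell (-0.95 ± 0.13). Of 12 transcription factors known to act on MMP promoters, Spi1, the myeloid factor PU.1, was the 1 called (1.49 ± 0.33, limma adjusted p = 0.0344). The macrophage sums given above moved with these rises, and their part in them was not tested.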

How the data were processed

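RNA was isolated from microdissected lateral walls and made into libraries with the TruSeq RNA kit, per the labels' protocols. TopHat2, Partek, DESeq2 and the build mm10 appear in the submitters' processing notes, with no version, role or annotation stated. For each gene the authors deposited 1 signal per library, a read count scaled by a size factor. A p-value, its adjusted form and a fold change with a sign, for old against young, stand beside it, per the file headers of the deposited table. Low values were whole multiples of 1 step, and dividing by it gave numbers within 0.1 of whole reads for 99.9% of values. Those recovered reads were used for edgeR 4.0.16 and DESeq2 1.42.0 as alternatives.

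The plan left edgeR or limma to the unit of the values. Since the deposited values are normalised, limma 3.58.1 (R 4.3.3, trend and robust) was fitted to log2(value + 1) of all 17091 genes and tested on simulated data, with Benjamini-Hochberg adjustment. The smallest p that an exact permutation test of 3 against 3 mice allows is 0.1, and no such test was made. The genes and lists were chosen with earlier results of these data known. Named with values were every called gene, every Timp, a list of well-known family members, the 3 nearest on each side of the threshold and, per pathway role, up to 4 called genes with the smallest p. Plau, Acan, Bgn, Col1a1, Reck, Adam23, Adamts3, Adamts8 and Adamts14 were named after their values were seen. No protein table was used, so ADAMs were called catalytic or not from general knowledge. Positions and exon lengths, found for 99.1% of symbols, are those of GENCODE M21 (GRCm38, equal to mm10). Of the 56 genes, 16 share exon bases with a gene on the opposite strand (among the called ones Mmp12, Adam8 and Timp4), and strand is not stated, so their reads are uncertain.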

Additional observations from a re-analysis of the deposited data

How the results depend on the processing

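Adamts2 and Timp4 kept their calls under all 18 settings. The 2 higher and 5 lower calls among the 56 genes became 1 higher and 7 lower under quantile normalisation (adding Adam32 and Adamts3). They became 1 higher and 2 lower in limma without trend and robust fitting, and 1 higher and 2 lower at an adjusted p under 0.01. Both DESeq2 on recovered reads and the authors' deposited p-values gave 4 higher (adding Mmp8 and Mmp13) and 10 lower (adding Adam32, Adamts3, Adamts15, Mmp14 and Mmp15), among them all 7 genes called in limma. Without old replicates 1 and 3, an alternative added after seeing the data that leaves 1 old library, 1 was higher. Leaving out each library gave 0 to 3 higher and 2 to 8 lower. Apart from DESeq2, the share of all genes called was not counted under these settings. A shift in the 56 genes thus cannot be told apart from a shift in all genes. The 9 higher and 16 lower pathway calls became 4 and 10 in limma without trend and robust fitting, and 3 and 11 at 0.01. DESeq2 and the authors' deposited table each gave 12 higher and 25 lower pathway genes. With each library left out there were 4 to 11 higher and 10 to 20 lower pathway genes. Old and young libraries of the same replicate number had negative correlations of their deviations from the group mean (-0.244, -0.0965 and -0.0879). No sample correlated best with its own number. The 3 deviations of a group sum to 0 in each gene, so these correlations cannot exclude that mice were paired. The replicate block gave 1 higher and 4 lower of the 56 genes (without Adam8 and Timp2, adjusted p = 0.0602 and 0.0529), and 5 higher and 12 lower pathway genes. The direction of change across settings was checked only for the 29 genes named under the rule. Among these it turned in uncalled ones. Leaving out each library, Adam10 ran from -0.05 to 0.05, Adam12 from -0.54 to 0.58 and Adam19 from -0.28 to 0.72. Likewise Adamts4 ran from -0.10 to 0.30 and Mmp3 from -1.59 to 0.37. Without old replicates 1 and 3 the changes were -0.10 in Adam10, 0.49 in Adam12 and 1.56 in Mmp3. In the same setting they were -0.04 in Adam9 and -0.86 in Mmp9. Adam12 was at 0.10 in edgeR, DESeq2 and the authors' deposited table, and Adamts4 at -0.15 under quantile normalisation. The cause of these shifts was not tested. Genes with few reads, such as Mmp3 and Adam32, are limited by depth, and 6 of the 56 genes averaged under 10 normalised read counts.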
